A study of Sus scrofa with 15 samples.

Results

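The genes described here are ROCK2, MICAL2, LPP, ITGA2 and AMOTL2, 5 genes of the actin cytoskeleton, focal adhesions and cell junctions, out of 16660 pig genes in the count table. They were chosen by their measured levels in these same libraries, from lists of differentially expressed genes. ROCK2, MICAL2, LPP and ITGA2 came from Tg1 against NC, and AMOTL2 from WT and Tg2 against NC, by fold change and p-value. All 5 had a mean of at least 2 CPM, a count scaled to library size, over the 15 libraries and so entered the test, as did 11553 genes in all. LLC-PK1 cells, an epithelial line from the proximal tubule of the pig kidney, were transiently transfected with plasmids for human PKD2, which encodes the cation channel polycystin-2, mutated in autosomal dominant polycystic kidney disease, to learn which pig genes respond to high PKD2. There were 5 groups of 3 libraries. NC cells received the plasmid with no PKD2 gene, which the labels call FLAG-floxP-neo-pH11 and the study's methods pCAG-floxP-neo-pH11, WT cells the plasmid with FLAG-tagged wild-type PKD2, Tg1 cells the mutant c.A1532T/p.D511V, Tg2 cells c.T1967G/p.L656W, and Tg3 cells c.C2224T/p.R742X, in which a stop codon replaces an arginine codon so that the end of the protein and its FLAG tag are missing. All groups share the cell line, the plasmid backbone and the transfection, a CAG promoter drove the transgene, and no clone was selected, so each well can hold transfected and untransfected cells. In such bulk RNA, fewer cells that express a gene and less RNA of that gene per cell cannot be told apart. The wells come from 1 line, and the p-values below measure only the spread between wells.

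Epithelial cells pull on each other and on the matrix through actin filaments that end in protein plaques. ROCK2 is a kinase switched on by the GTPase RHOA that raises myosin tension on these filaments, and MICAL2 is an enzyme that oxidises actin and thereby affects filament turnover and the serum response factor pathway. LPP is a LIM-domain relative of zyxin found at focal adhesions and cell contacts, ITGA2 is the alpha subunit that pairs with ITGB1 to make a collagen receptor, and AMOTL2 is an angiomotin that links junctions to actin and can hold back the Hippo pathway coactivator YAP. Altered cell adhesion, polarity and tension are long-standing themes in research on kidney cysts.

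Library totals ran from 20216200 to 26132196 counts, and Tg1 libraries, with 22700986 to 25736040 counts, lay inside the range of the other groups. The smallest raw count behind any value of the 5 genes was 290, for LPP, and AMOTL2 had 7058 to 10468 counts per library. The 13 mitochondrially encoded genes took 2.86% to 3.15% of counts in Tg1 and 3.16% to 3.42% in NC. Of 14 tubule epithelium markers, 12 were in the table and all 12 had a mean of at least 2 CPM, with KRT8, a simple-epithelium keratin, at 2297 CPM, and the proximal tubule endocytic receptors LRP2 at 261 CPM and CUBN at 81.3 CPM. The summed level of these markers was 4449 to 4612 CPM in Tg1 and 4383 to 4492 CPM in NC, against 4195 to 4642 CPM over all libraries.

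Markers of other cell types were near 0 with a few exceptions. Of 7 fibroblast markers, 6 were in the table and 1 was above 2 CPM. That gene, COL1A2, reached 923 CPM, so the list's sum of 808 to 1069 CPM per library was nearly all COL1A2, whereas its defining markers PDGFRA, PDGFRB and LUM had 6, 5 and 7 counts over all 15 libraries. The list summed to 867 to 1011 CPM in Tg1 and 931 to 993 CPM in NC. Of 6 endothelial markers, 5 were in the table and 1 was above 2 CPM, EMCN at 2.50 CPM. This list summed to 3.26 to 4.51 CPM in Tg1 and 3.07 to 3.44 CPM in NC, and CDH5 and KDR had 5 and 2 counts in total. All 6 leukocyte markers were in the table and 3 were above 2 CPM: CD3E at 20.5, CD79A at 6.23 and CD68 at 2.33 CPM. The leukocyte sums were 29.8 to 33.2 CPM in Tg1 and 31.0 to 33.4 CPM in NC, and PTPRC, the defining marker, had 6 counts in total.

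ROCK2 (ENSSSCG00000008629) was lowest in Tg1. Its level after TMM scaling, which corrects CPM for library composition, was 74.1, 72.4 and 73.8 CPM in NC replicates 1, 2 and 3, and 49.5, 56.3 and 60.0 CPM in Tg1. All 3 Tg1 libraries were below every other library. WT gave 68.5, 64.8 and 70.5 CPM, Tg2 61.6, 61.9 and 70.1 CPM, and Tg3 66.1, 64.9 and 69.4 CPM. These 3 groups overlapped with each other, and each of their libraries was below each NC library, so NC was the highest group. Because the choice of ROCK2 used Tg1 and NC, the differences from NC are given with no test. The Tg1 mean of 55.3 ± 5.33 CPM (SD, n = 3) against 73.5 ± 0.890 CPM in NC was a log2 fold change of -0.41 ± 0.07 (SE), or 75.3% of the NC level. The log2 fold change against NC was -0.19 ± 0.07 in Tg2, -0.14 ± 0.07 in Tg3 and -0.11 ± 0.07 in WT.

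MICAL2 (ENSSSCG00000013400) also had its lowest level in Tg1, and was the steadiest of the 5 genes in NC after ROCK2. NC libraries stood at 36.8, 36.1 and 36.0 CPM and Tg1 libraries at 24.9, 26.2 and 28.7 CPM. The groups did not overlap, and no library of any other group reached down to the Tg1 range. WT libraries stood at 31.4, 31.2 and 35.0 CPM, Tg2 libraries at 33.1, 32.2 and 35.3 CPM, and Tg3 libraries at 38.0, 36.5 and 37.2 CPM. WT and Tg2 overlapped with each other and lay wholly below NC, whereas Tg3 overlapped with NC. In order of the mean, Tg1 (26.6 ± 1.95 CPM) was followed by WT (32.5 ± 2.16 CPM), Tg2 (33.6 ± 1.60 CPM), NC (36.3 ± 0.453 CPM) and Tg3 (37.2 ± 0.712 CPM). Of these neighbours, Tg1 and WT did not overlap, nor did Tg2 and NC. The log2 fold change against NC was -0.45 ± 0.06 in Tg1 (73.3% of the NC level), -0.16 ± 0.06 in WT, -0.11 ± 0.06 in Tg2 and 0.04 ± 0.06 in Tg3.

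LPP (ENSSSCG00000011811) had the widest range of the 5 genes, with its highest library 2.84 times its lowest, against 1.42 to 1.53 times for the others. Its Tg1 and Tg2 wells were also less even than those of the other 4 genes. NC libraries had 35.8, 30.8 and 30.4 CPM, and Tg1 libraries 12.6, 18.8 and 19.7 CPM. All Tg1 libraries were below all others, and Tg1 replicate 1 stood well under the other Tg1 wells. WT had 31.6, 26 and 31.9 CPM, Tg2 had 28.5, 21.9 and 29.1 CPM, and Tg3 had 31.8, 33.9 and 32.8 CPM. Tg2 lay below NC without overlap but overlapped with WT, and 1 library pulled each of these means down, replicate 2 in both. The group means were 17.0 ± 3.85 CPM in Tg1, 26.5 ± 4.0 CPM in Tg2, 29.8 ± 3.31 CPM in WT, 32.3 ± 3.00 CPM in NC and 32.8 ± 1.04 CPM in Tg3, and among neighbours in this order Tg1 and Tg2 were the ones without overlap. Against NC, the log2 fold change was -0.92 ± 0.14 in Tg1 (52.8% of the NC level), -0.28 ± 0.14 in Tg2, -0.11 ± 0.14 in WT and 0.02 ± 0.14 in Tg3. Leaving out 1 library at a time, the Tg1 value ranged from -1.03 to -0.75, and the Tg2 value was -0.17 without Tg2 replicate 2.

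ITGA2 (ENSSSCG00000016887) differed from the other groups in Tg1 alone, as far as group ranges show. NC libraries had 52.9, 45.4 and 52.5 CPM, and Tg1 libraries 37.2, 38.3 and 41.0 CPM, again below every other library. WT had 52.4, 44.0 and 52.9 CPM, Tg2 had 47.7, 48.5 and 50.05 CPM, and Tg3 had 50.7, 48.0 and 49.7 CPM. NC, WT, Tg2 and Tg3 all overlapped, with means of 50.2 ± 4.24, 49.7 ± 5.01, 48.8 ± 1.18 and 49.5 ± 1.38 CPM, whereas Tg1 averaged 38.9 ± 1.95 CPM. The log2 fold change against NC was -0.37 ± 0.07 in Tg1, 77.4% of the NC level, and between -0.04 and -0.01 (SE 0.07 each) in the other genotypes.

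AMOTL2 (ENSSSCG00000011643) ran the other way and was lowest in NC. NC libraries had 323, 338 and 357 CPM, WT libraries 438, 366 and 458 CPM, and Tg2 libraries 412, 416 and 414 CPM. WT and Tg2 lay above NC without overlap, although WT replicate 2 came close to the highest NC library, and the Tg2 wells were nearly equal. Tg1 had 343, 389.8 and 411 CPM and Tg3 had 384, 357 and 377 CPM. Both of these groups overlapped with NC. By mean, NC (339.5 ± 17.4 CPM) was followed by Tg3 (373 ± 14.2 CPM), Tg1 (381 ± 35.0 CPM), Tg2 (414 ± 1.99 CPM) and WT (421 ± 48.7 CPM), and among these neighbours Tg1 and Tg2 alone did not overlap. The log2 fold change against NC was 0.31 ± 0.08 in WT, 0.29 ± 0.08 in Tg2, 0.17 ± 0.08 in Tg1 and 0.13 ± 0.08 in Tg3. The WT value was 0.40 without WT replicate 2 and 0.24 without WT replicate 3, with the other fits that left out 1 library in between. At the fold threshold of the study's methods, an absolute log2 fold change of 0.26, AMOTL2 in Tg2 (0.29) and LPP in Tg2 (-0.28) were the nearest values inside, and ROCK2 in Tg2 (-0.19) and AMOTL2 in Tg1 (0.17) the nearest outside. Without NC replicate 1, AMOTL2 in Tg2 was 0.25 and LPP in Tg2 -0.21, so that both lay outside, as did AMOTL2 in WT without WT replicate 3 and LPP in Tg2 without Tg2 replicate 2.

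**Figure D1:**
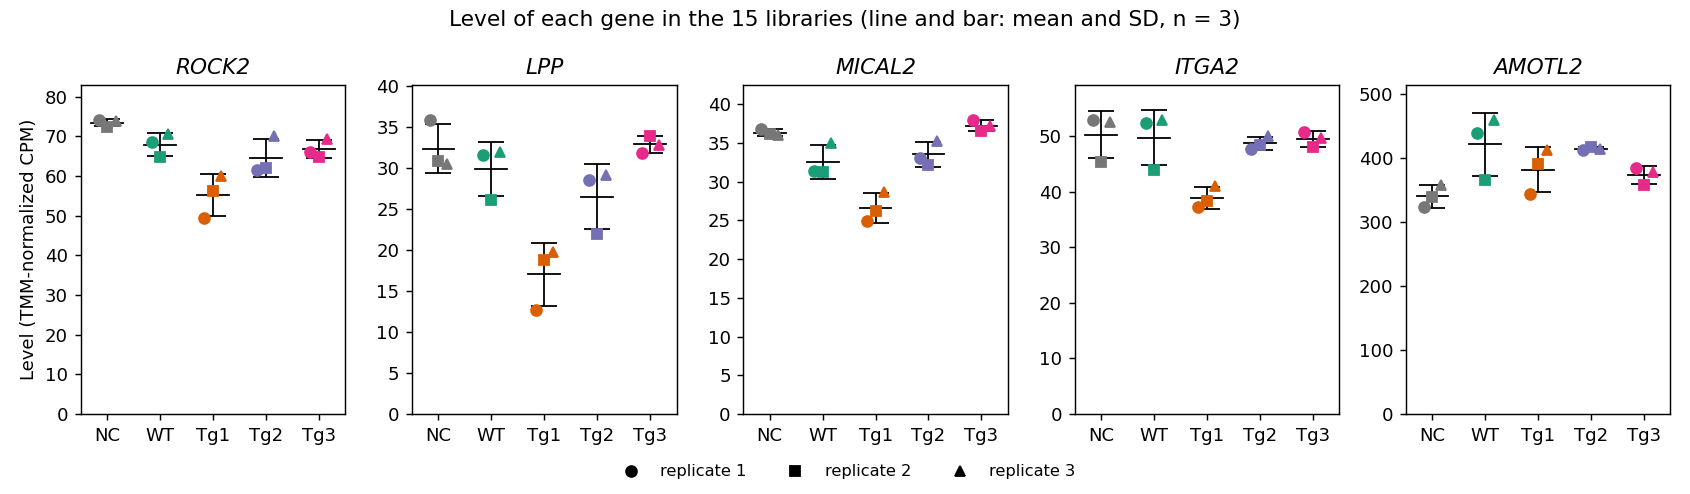
Level of ROCK2, LPP, MICAL2, ITGA2 and AMOTL2 in TMM-normalized CPM (vertical axes from 0, one scale per gene) in the 5 groups, with 1 symbol per library and the mean and SD (n = 3) as lines. The Tg1 libraries lie below all others in 4 of the 5 panels, and in the AMOTL2 panel NC has the lowest mean, 339.5 CPM.

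ROCK2, MICAL2, LPP and ITGA2, the 4 genes picked for Tg1, each had all 3 Tg1 libraries below all 12 other libraries. Of all genes tested, 243 of 11553 had this pattern (2.1%), and since Tg1 and NC chose these 4 genes, nothing is read from their count. In the comparison that chose them, 117 genes (1.01%) passed the call used here, an adjusted p of at most 0.05 with an absolute log2 fold change of at least 0.26, as lower in Tg1 than in NC, and 21 genes (0.182%) as higher. Outside Tg1 the 4 genes differed in their position against NC. The NC libraries took part in the choice, which favours genes high in NC, so nothing is read from these positions. ROCK2 was lower than NC in every library of every genotype, MICAL2 in WT and Tg2 but not in Tg3, LPP in Tg2, and ITGA2 in no further group. Tg3, with the plasmid for the truncated polycystin-2, was the group with the highest mean of LPP and of MICAL2, each overlapping with NC. The study's FLAG blot could not show the Tg3 protein, which lacks the tag.

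**Figure D2:**
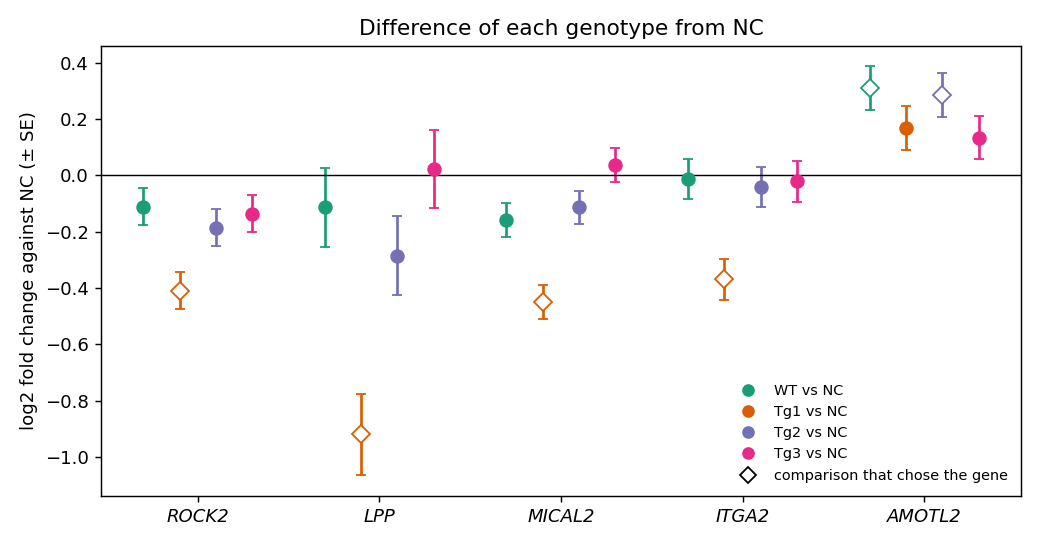
Log2 fold change of each gene against NC (vertical axis, with its SE as bars) for WT, Tg1, Tg2 and Tg3. Open diamonds mark the comparisons that chose the gene, which are shown with no test. LPP in Tg1 has the lowest value, -0.92.

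The choice left the group means of some comparisons untouched, and these comparisons were tested. For ROCK2, MICAL2, LPP and ITGA2 they are those among WT, Tg2 and Tg3, and for AMOTL2 the comparison of Tg1 with Tg3, 13 tests in all. None passed the edgeR quasi-likelihood test with Benjamini-Hochberg adjustment over all genes (adjusted p between 0.143 and 0.959), 3 had an unadjusted p under 0.05, and DESeq2 called 0. Over all genes, edgeR called 382 higher (3.31%) and 302 lower (2.61%) in Tg2 than in WT, 7 higher (0.0606%) and 64 lower (0.554%) in Tg1 than in Tg3, and 0 (0%) in either direction between Tg3 and WT or between Tg2 and Tg3. By edgeR, 34.3% of all genes had an unadjusted p under 0.05 in Tg2 against WT and 15.8% in Tg1 against Tg3. In Tg3 against WT 2215 genes (19.2%) had such a p, and in Tg2 against Tg3 673 genes (5.83%). The exact permutation test, two-sided, cannot go below p = 0.1 with 3 libraries against 3. In the edgeR fit, the spread behind the 13 tests and their intervals came from all 15 libraries, those of the choice included.

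MICAL2 in Tg3 against WT had the lowest adjusted p of the 13, with a fold change under the threshold. Its level in Tg3 was above that in WT by a log2 fold change of 0.19 (95% interval 0.07 to 0.32), higher in 3 of 3 libraries, with an edgeR adjusted p of 0.143, an unadjusted p of 0.00595 and an exact permutation p of 0.1. Between Tg2 and Tg3 it was -0.15 (-0.28 to -0.02), again without overlap, with an edgeR adjusted p of 0.822. Between Tg2 and WT it was 0.04 (-0.08 to 0.17). LPP gave its lowest unadjusted p, 0.0468 by edgeR, in Tg2 against Tg3, where the log2 fold change was -0.31 (-0.61 to -0.01) and the adjusted p 0.822. This was the one fold change of the 13 past the threshold of 0.26, and without Tg2 replicate 2 it was -0.19, short of that threshold. Tg2 libraries were all below Tg3 libraries there, whereas LPP in Tg2 against WT, at -0.17 (-0.48 to 0.13), and in Tg3 against WT, at 0.14 (-0.16 to 0.44), overlapped.

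ROCK2 differed little among these groups, with -0.07 (-0.22 to 0.07) in Tg2 against WT, -0.02 (-0.17 to 0.12) in Tg3 against WT and -0.05 (-0.19 to 0.09) in Tg2 against Tg3. The intervals leave room for differences of about the size of those between WT and NC. ITGA2 had values of -0.03 (-0.18 to 0.13), -0.01 (-0.16 to 0.15) and -0.02 (-0.18 to 0.13) in the same order. AMOTL2 in Tg1 against Tg3 was 0.03 (-0.13 to 0.20), with an edgeR adjusted p of 0.892 and an exact permutation p of 0.8. The groups overlapped for all of these.

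Within Tg1 and WT, the 5 genes were low and high in the same wells. Tg1 replicate 1 was the lowest and Tg1 replicate 3 the highest Tg1 library for every one of the 5, AMOTL2 included. LPP in Tg1 replicate 1 was at 74.1% of its group mean, ROCK2 at 89.6%, AMOTL2 at 89.9%, MICAL2 at 93.6% and ITGA2 at 95.8%. In the same way WT replicate 2 was the lowest and WT replicate 3 the highest WT library for all 5, with WT replicate 2 between 86.9% (AMOTL2) and 95.9% (MICAL2) of the group mean. In Tg2, replicate 3 was the highest library for ROCK2, MICAL2, LPP and ITGA2, whereas AMOTL2 was even. NC and Tg3 did not share this pattern. NC replicate 1 was the highest NC library for ROCK2, MICAL2, LPP and ITGA2 and the lowest for AMOTL2, and Tg3 replicate 2 was the lowest Tg3 library for 4 genes and the highest for LPP, at 103% of its group mean.

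Deviations from the group mean correlated between all 10 pairs of these genes, with Pearson's r from 0.52 (LPP with ITGA2) to 0.83 (ROCK2 with MICAL2) over 15 libraries. The median r of such deviations between 1 of the 5 and every other gene tested lay between -0.03 and 0.01, and an r over 0.5 was seen for 5.44% (LPP) to 18.3% (ITGA2) of genes. With the group means left in, r among ROCK2, MICAL2, LPP and ITGA2 was 0.850 to 0.918 over 15 libraries and 0.315 to 0.666 over the 12 libraries without Tg1. AMOTL2 with the others gave -0.09 to 0.21 over 15 libraries and -0.47 (MICAL2) to 0.27 (ITGA2) over the 12 without Tg1. These r values describe 15 libraries that share their groups and carry no test. With the group means left in, the choice of ROCK2, MICAL2, LPP and ITGA2 as low in Tg1 against NC raises their r. NC is also among the 12 libraries without Tg1, so nothing is read from the size of these r. The wells in which the 5 genes were low together also differed in other respects. WT replicates 2 and 3, for instance, were the replicate pair that differed most over all genes, with a chi-square over its degrees of freedom of 40.3, against 2.73 for Tg3 replicates 1 and 3, the closest pair. The mitochondrial share was 3.15% in Tg1 replicate 1, the highest of Tg1, and 2.87% in WT replicate 2, the lowest of WT. The part of such well differences in the levels of the 5 genes was not tested.

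**Figure D3:**
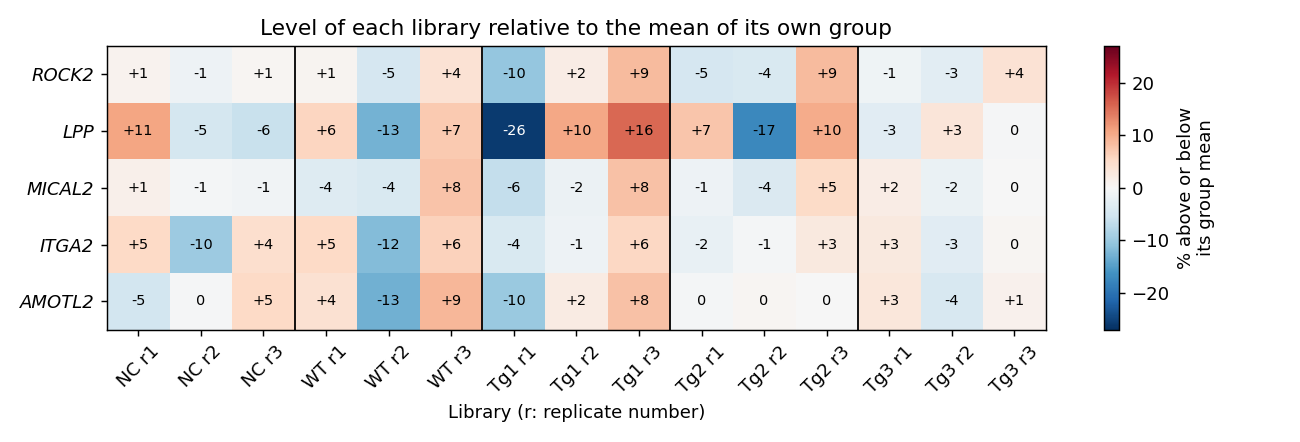
Percent by which each library (columns, in groups of 3) lay above or below the mean of its own group for each of the 5 genes (rows), in red above and blue below. Tg1 replicate 1 and WT replicate 2 are blue in all rows and Tg1 replicate 3 and WT replicate 3 red in all rows, with LPP in Tg1 replicate 1 the deepest, at 74.1% of its group mean.

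The genes whose level followed each of the 5 most closely were listed by Pearson's r of log2 CPM over the 15 libraries. ROCK2 was followed by PRRC2C (0.954), the receptor phosphatase PTPRG (0.934) and the histone methyltransferase ASH1L (0.932). LPP was followed by the tankyrase TNKS (0.946), MCM3AP (0.945) and the histone methyltransferase KMT2A (0.942). TNKS also led for MICAL2 (0.951), ahead of PTAR1 (0.948) and DMXL1 (0.938). For ITGA2 the list was led by TAOK1 (0.966), a kinase upstream of the Hippo pathway, and AFF4 (0.932). AMOTL2 had other company: DUSP5 (0.974), a phosphatase of ERK kinases, the zinc-finger factor KLF6 (0.944) and the urokinase gene PLAU (0.935). The median r of the 5 genes with all genes lay between -0.04 and -0.01. This r takes in the group differences that chose the 5 genes, so genes with the same differences rank high. Taken within groups, r stayed at 0.949 for AMOTL2 with DUSP5 and 0.926 for ITGA2 with TAOK1, and was 0.506 for MICAL2 with DMXL1.

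The tested relatives and partners of the 5 genes were ROCK1, MICAL1, MICAL3, ZYX, LIMD1, ITGB1, ITGA1, AMOT and AMOTL1. None passed the call in Tg1 against NC by edgeR. There, 3 of them, ROCK1, AMOT and ZYX, had an unadjusted p under 0.05, as did 19.9% of all genes. DESeq2 called 0 of them at the same fold threshold. ROCK1, the kinase most like ROCK2, had 95.7, 93.1 and 92.6 CPM in NC and 85.0, 84.0 and 83.2 CPM in Tg1. The groups did not overlap, and the log2 fold change of -0.16 ± 0.04 had an edgeR adjusted p of 0.0366 but was under the fold threshold. In Tg2 it was -0.11 ± 0.04 (edgeR adjusted p = 0.0497), also under that threshold. MICAL1 stood at 37.4 ± 1.87 CPM in Tg1 and 35.3 ± 0.901 CPM in NC (n = 3 each), and MICAL3 at 33.0 ± 0.334 and 36.8 ± 1.60 CPM, with edgeR adjusted p of 0.488 and 0.270. The zyxin-related LIMD1 was -0.08 ± 0.05 from NC on the log2 scale in Tg1 and 0.04 ± 0.05 in Tg2, and TRIP6 was under 2 CPM and not tested.

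ITGB1, the subunit that pairs with ITGA2, had 547, 555 and 542 CPM in NC and 539.8, 537 and 543 CPM in Tg1. These groups overlapped, with a log2 fold change of -0.02 ± 0.04 (edgeR adjusted p = 0.791). ITGA1, the alpha subunit of another collagen receptor, stood at 7.59 ± 1.09 CPM in Tg1 and 9.23 ± 1.02 CPM in NC (log2 fold change -0.28 ± 0.16, edgeR adjusted p = 0.355). Among angiomotins, AMOT was 221 ± 2.49 CPM in Tg1 and 240.1 ± 3.07 CPM in NC, without overlap (-0.12 ± 0.03, edgeR adjusted p = 0.0756). AMOTL1 was 6.83 ± 0.574 and 9.29 ± 1.49 CPM in Tg1 and NC (-0.44 ± 0.21, edgeR adjusted p = 0.252) and 5.88 ± 1.73 CPM in Tg2 (-0.66 ± 0.21, edgeR adjusted p = 0.0528). AMOT in Tg2 was 240.1 ± 4.87 CPM, next to its NC level. Tests of the difference between a gene and its relative were not run.

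To place the 5 genes among the rest of their pathways, 9 lists with 215 genes were used, the 5 themselves left out. Of these, 203 were in the table and 188 were tested. In Tg1 against NC, 0 rose and 4 fell (2.13% of the listed genes, beside the 1.01% of all genes given above), and 56 had an unadjusted p under 0.05 (29.8%, beside 19.9% of all genes), 23 of them higher and 33 lower. The median log2 fold change was -0.02 over the lists and 0.00 over all genes.

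The 4 that fell in Tg1 were TEAD1, TAOK1, PTPN14 and CDH6. TEAD1, a transcription factor through which YAP acts, had 96.5, 93.0 and 95.9 CPM in NC and 66.8, 65.7 and 72.9 CPM in Tg1. The 3 Tg1 libraries were below all NC libraries, and the log2 fold change was -0.47 ± 0.07 (edgeR adjusted p = 0.00764). PTPN14, a phosphatase that binds YAP, had 66.4, 56.9 and 65.2 CPM in NC and 43.1, 45.7 and 51.5 CPM in Tg1, without overlap, a log2 fold change of -0.43 ± 0.09 (edgeR adjusted p = 0.0367). TAOK1 fell by 0.37 on the log2 scale (SE 0.08, edgeR adjusted p = 0.0297) and the kidney cadherin CDH6 by 0.35 (SE 0.08, edgeR adjusted p = 0.0477). TEAD1, TAOK1 and PTPN14 are 3 of the 22 genes of the angiomotin and Hippo list (13.6%, beside 1.01% of all genes called lower). The median of that list was -0.05. It was singled out after all lists were counted, and the lists were chosen with earlier results known, so nothing is read about the pathway. Leaving out 1 library at a time, TEAD1 was called in 5 of 6 fits, TAOK1 and PTPN14 in 2 each and CDH6 in 0, while the log2 fold change stayed between -0.52 and -0.45 for TEAD1, -0.43 and -0.33 for TAOK1, -0.50 and -0.37 for PTPN14 and -0.40 and -0.32 for CDH6. The count of listed genes was 0 without Tg1 replicate 2 and 1 without Tg1 replicate 1, NC replicate 1 or NC replicate 3, and calls over all genes went down in the same fits, from 138 to 16, 55, 19 and 17.

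In the lists closest to the 5 genes themselves, the count in Tg1 against NC was 0 for 30 ROCK and actomyosin genes, 34 actin filament genes, 35 focal adhesion plaque genes and 11 integrins by edgeR. At an unadjusted p under 0.05, where 19.9% of all genes lay, were 10 (4 higher and 6 lower), 13 (10 higher and 3 lower, 38.2% of the list), 10 (5 higher and 5 lower) and 2 genes (both lower). Over the whole actin filament list 19 genes were higher and 15 lower in Tg1, so no direction of the list is read from these 13. DESeq2 called 8 listed genes, 3 higher and 5 lower, beside 59 higher (0.542%) and 185 lower (1.7%) of the 10881 genes to which it gave an adjusted p, among them the adhesion adaptor BCAR1 and the kinase CIT of these lists. Median log2 fold changes were -0.01, 0.01, -0.02 and -0.04. The 8 tested targets of MRTF and SRF, the pathway linked to MICAL2, also had 0 called (2 with an unadjusted p under 0.05) and a median of 0.08, and of 14 tested targets of YAP and TEAD edgeR called 1, PTPN14, which is on both lists, as lower, with a median of 0.01. The YAP target ANKRD1, at 330 ± 34.6 CPM in Tg1 and 263 ± 21.3 CPM in NC, was not called by edgeR (0.33 ± 0.09, adjusted p = 0.0679), but was called as higher by DESeq2 and with the replicate block, and a fit of the 2 groups alone called the YAP target CCN2 as higher, which had a log2 fold change of 0.45 ± 0.26 (edgeR adjusted p = 0.341) in the fit of all groups.

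Tg2 against NC, the comparison in which AMOTL2 was chosen, gave more calls, and most were higher. Of the listed genes 11 rose (5.85%) and 3 fell (1.60%), whereas of all genes 546 rose (4.73%) and 428 fell (3.7%). The median log2 fold change was 0.01 over the lists and -0.01 over all genes. Other measures moved in Tg2 as well. The mitochondrial share was 2.69% to 3.04% in Tg2, below the NC range given above, as was the fibroblast sum, 808 to 873 CPM and nearly all COL1A2, whereas the endothelial sum, 4.51 to 5.02 CPM, was above that of NC. The tubule and leukocyte sums, 4195 to 4508 and 29.2 to 33.5 CPM, overlapped with NC. The part of these differences in the Tg2 calls was not tested.

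ZYX, the zyxin gene and a relative of LPP, had 183, 189.8 and 187 CPM in NC and 244, 240.3 and 215 CPM in Tg2. All Tg2 libraries were higher, with a log2 fold change of 0.32 ± 0.06 (edgeR adjusted p = 0.0136). ITGA3, a laminin-receptor subunit, had 859, 942 and 798 CPM in NC and 1414, 1317 and 1104 CPM in Tg2 (0.56 ± 0.14, edgeR adjusted p = 0.0241), whereas ITGAV, a subunit of receptors for RGD-bearing matrix proteins, fell from 183 ± 2.19 to 152 ± 4.38 CPM (-0.27 ± 0.04, n = 3, edgeR adjusted p = 0.00994).

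The other listed genes that rose in Tg2 belong to several structures. MYLK, the kinase that activates myosin light chains, rose by a log2 fold change of 0.50, BCAR1 by 0.36, the junction genes JUP, CDH1 and F11R by 0.39, 0.30 and 0.41, and the matrix protein SPP1 by 0.36. The YAP targets ANKRD1 and AXL rose by 0.47 and 0.79, and the LIM protein FHL1 by 0.30. Beside ITGAV, those that fell were CDH6 (-0.32) and the laminin chain LAMB2 (-0.26). The edgeR adjusted p of these genes lay between 0.0141 and 0.0475.

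The lists as a whole were mixed in Tg2 against NC, where 35.2% of all genes had an unadjusted p under 0.05. Of 13 matrix ligands, 10 had such a p, 4 higher and 6 lower, with SPP1 called higher, LAMB2 called lower and a median log2 fold change of -0.11. This list also holds COL1A2. Of 28 junction genes 15 had such a p (8 higher and 7 lower), with 3 called higher, 1 lower and a median of 0.06, and of 11 integrins 5 (2 higher and 3 lower), with 1 called in each direction and a median of 0.06. Of 35 focal adhesion plaque genes 15 had such a p (10 higher and 5 lower), with 2 called higher and a median of 0.02, and of 34 actin filament genes 15 (12 higher and 3 lower), with 0 called by edgeR and a median of 0.07. The 30 ROCK and actomyosin genes had 8 (4 higher and 4 lower), with 1 called higher and a median of -0.05, and the 22 angiomotin and Hippo genes 7 (4 higher and 3 lower), with 0 called by edgeR and a median of 0.00. Among targets, 2 of 14 for YAP and TEAD and 1 of 8 for MRTF and SRF were called higher and 0 lower, with medians of 0.13 and 0.04.

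None of the 14 calls in Tg2 against NC held in all 6 fits with 1 library left out: ITGAV was called in 3 and each of the others in 2. All 14 kept their direction in these fits, with log2 fold changes from -0.28 to -0.24 for ITGAV, 0.29 to 0.37 for ZYX, 0.33 to 0.40 for BCAR1 and -0.37 to -0.29 for CDH6, and the smallest was under 0.26 for ITGAV, CDH1, FHL1 and LAMB2. The count of listed genes was 0 without Tg2 replicate 2, NC replicate 1 or NC replicate 3, 1 without Tg2 replicate 1, 19 without NC replicate 2 and 31 without Tg2 replicate 3. Over all genes the same fits called 0, 24, 0, 48, 1322 and 1880, against 974 with every library, so the listed genes went up and down with the whole table.

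**Figure D4:**
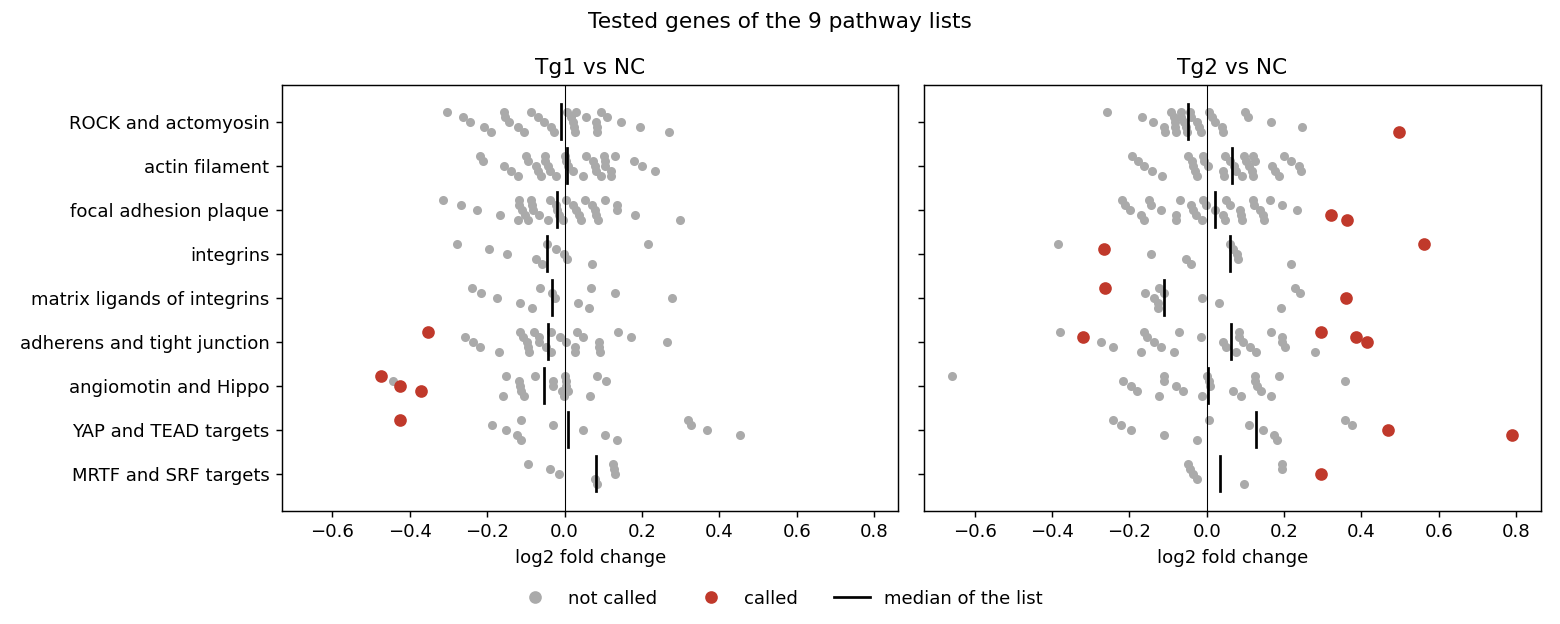
Log2 fold change (horizontal axis, same scale in both panels) of each tested gene on the 9 pathway lists (rows) in Tg1 against NC and in Tg2 against NC, red where called, with the median of each list as a bar. A gene on 2 lists appears in both rows. In Tg1 the 4 called genes lie to the left of 0, and in Tg2 11 lie to the right and 3 to the left.

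By edgeR, WT and Tg3 gave no calls on these lists. In WT against NC edgeR called 0 genes in either direction (0% of all genes as well), with 15 listed genes at an unadjusted p under 0.05 (7.98%, beside 4.54% of all genes), 12 of them higher. DESeq2 called 2, CCN1 and RND3, both higher, beside 11 higher (0.362%) and 0 lower (0%) of the 3042 genes to which it gave an adjusted p. Without WT replicate 2, the well in which the 5 genes were lowest in WT, edgeR called 5, all higher, beside 24 higher (0.208%) and 1 lower (0.00865%) of all genes: the YAP targets CCN1 and CCN2, the matrix protein THBS1, RND3 and the polarity gene PARD6B. In Tg3 against NC edgeR called 0 in either direction (0%), with 34 listed genes at an unadjusted p under 0.05, 25 of them higher. This share of 18.1% was that of all genes, also 18.1%. DESeq2 called 1, BCAR1, as higher, beside 30 higher (0.438%) and 22 lower (0.321%) of the 6849 genes to which it gave an adjusted p. These names and those in the next comparisons were chosen after their values were seen.

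Between genotypes, Tg2 against WT had 8 listed genes higher (4.26%) and 4 lower (2.13%), beside 3.31% and 2.61% of all genes. The higher ones were ZYX, BCAR1, ITGA3, JUP, MYLK, FHL1, the claudin CLDN1 and the YAP partner TEAD4, with log2 fold changes from 0.26 (CLDN1) to 0.52 (ITGA3). The lower ones were LAMB2, CDH6, the tight junction gene TJP3 and AMOTL1, the relative of AMOTL2, at 5.88 ± 1.73 CPM in Tg2 and 9.73 ± 2.22 CPM in WT (-0.73 ± 0.21, edgeR adjusted p = 0.0479). The libraries of Tg2 and WT overlapped for all 4 of these and, among the higher ones, for MYLK and FHL1. The fibroblast sum of WT, 917 to 1069 CPM, lay above that of Tg2 and the endothelial sum, 2.56 to 4.48 CPM, below it, and the part of these in the calls was not tested. An edgeR fit of these 2 groups alone called 0 listed genes and 0 of all genes, with 49 listed genes (of 2714 in all) at an unadjusted p under 0.05, and DESeq2 called 17 listed genes, beside 1184 of all genes (10.2%). The count of listed genes was 0 without Tg2 replicate 1, Tg2 replicate 2, WT replicate 1 or WT replicate 3, 29 without Tg2 replicate 3 and 39 without WT replicate 2, and over all genes it was 0, 0, 1, 0, 1878 and 2421, against 684 with every library. In Tg1 against Tg3, 0 rose and 4 fell (2.13%, beside 0.554% of all genes): TEAD1, PTPN14, the actin-binding cytokinesis protein ANLN and the collagen COL12A1. Their log2 fold changes were -0.36 ± 0.07, -0.44 ± 0.10, -0.26 ± 0.04 and -0.32 ± 0.05 (edgeR adjusted p = 0.0303, 0.0452, 0.0159 and 0.0150). The count was 6 without Tg1 replicate 3, beside 113 of all genes, and 0 without any other single library of these groups, beside 3 to 14 of all genes, against 71 with every library. By edgeR, 0 listed genes were called in Tg1 against WT and in Tg1 against Tg2, beside 8 and 16 of all genes. In Tg3 against WT and in Tg2 against Tg3 the count was 0, beside 0 of all genes.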

How the data were processed

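RNA of 15 wells of LLC-PK1 cells was sequenced. The authors quantified transcripts with Salmon against Ensembl pig cDNA and deposited raw gene counts, as whole numbers under Ensembl gene identifiers. How transcripts were summed to genes is not given in the sources used here. Similar transcripts can share reads in such quantification, which bears on gene families. The authors' fold changes and p-values in the study's tables were not used, and 0 columns of the count table were left out. Symbols came from the reference table for 13373 genes and from the study's tables for 53 more, MICAL2 included.

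Genes averaging at least 2 CPM (counts scaled to library size) were tested in R 4.3.3 with edgeR 4.0.16 (TMM, glmQLFit, glmQLFTest), 1 model of 5 group means over all 15 libraries, and Benjamini-Hochberg adjustment over the 11553 genes. DESeq2 1.42.0 was an alternative; the authors used DESeq2 in another version. A call needed an adjusted p of at most 0.05 and an absolute log2 fold change of at least 0.26. The SE is the fold change divided by the square root of F. The fit was tested on simulated data.

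The 5 genes and the lists were chosen with earlier results of these data known. Named beside them were called listed genes (up to 4 per list and comparison with NC, by adjusted p), close relatives, the 3 genes of highest r (1 is not reported here) and the most abundant marker genes. No 2 replicates differed as little as counting noise. Wells of the same number correlated above 0.1 for all 3 pairs between NC and WT, where the replicate block left the count of calls at 0, and for some but not all pairs in every other comparison, so the model has no block. The human transgene was not analysed here.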

Additional observations from a re-analysis of the deposited data

How the results depend on the processing

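Alternative settings were DESeq2, DESeq2 size factors, no filter, filterByExpr, a fit of the 2 groups alone, no fold threshold and the replicate block. Under each of them the 5 genes kept the direction of their difference from NC. Of the 13 tests between groups that did not choose the gene, 0 passed under any of these settings. Leaving out 1 library turned the sign of small differences: against NC, LPP in Tg3 ranged from -0.0186 to 0.10, ITGA2 in WT from -0.0825 to 0.0682 and ITGA2 in Tg3 from -0.0902 to 0.0183, and elsewhere ROCK2 in Tg3 against WT ranged from -0.0565 to 0.0052, ITGA2 in Tg2 against WT from -0.11 to 0.0159 and in Tg3 against WT from -0.0889 to 0.0399, and AMOTL2 in Tg1 against Tg3 from -0.0245 to 0.10. Counts of listed genes called moved more, and the count over all genes in the same fit follows each in brackets. With every library and the settings of the report they were 0 [0] for WT, 4 [138] for Tg1, 14 [974] for Tg2 and 0 [0] for Tg3 against NC, 12 [684] for Tg2 against WT and 4 [71] for Tg1 against Tg3. With DESeq2 they were 2 [11] for WT, 8 [244] for Tg1 and 1 [52] for Tg3 against NC and 7 [139] for Tg1 against Tg3. With no fold threshold they were 14 [264] for Tg1 and 38 [1643] for Tg2 against NC and 25 [1099] for Tg2 against WT. With the 2 groups alone they were 7 [146] for Tg1 against NC and 0 [0] for Tg2 against WT, and with no filter 7 [575] for Tg2 against WT. With 1 library left out they ranged from 0 to 5 [0 to 25] (WT), 0 to 4 [16 to 83] (Tg1), 0 to 31 [0 to 1880] (Tg2) and 0 to 0 [0 to 0] (Tg3) against NC, 0 to 39 [0 to 2421] for Tg2 against WT and 0 to 6 [3 to 113] for Tg1 against Tg3. The cause was not tested. Listed genes were followed singly over all settings in the comparisons where they were called with every library, as were the relatives in Tg1 against NC. Their calls were lost with the same direction 167 times and gained 1 time (ROCK1 in Tg1 against NC, with no fold threshold). Other listed genes and comparisons were not in this tally, and some gained calls, as ANKRD1 and CCN2 did in Tg1 against NC. Samples of the same number correlated above 0.1 in 20 of 30 pairs (r -0.36 to 0.55), 9 of 15 libraries were on average closest to their own number, and with the replicate block the counts were 8 [246] for Tg1 (3 higher and 5 lower), 19 [1624] for Tg2, 0 [0] for WT and 0 [11] for Tg3 against NC, 17 [1578] for Tg2 against WT and 6 [108] for Tg1 against Tg3.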
